A study of Mus musculus with 6 samples.

Results

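Dcn, Lum, Col1a1, Col1a2, Col3a1, Acta2, Myh11, Tagln, Pdgfra and Igf1 are markers of the peritubular myoid cells and interstitial stroma of the testis, and their reads in sorted germ cells are a readout of somatic RNA in each sort. These 10 genes were taken by symbol from a count table of 54532 genes, and each matched 1 row. The RNA-seq libraries were made from germ cells of early meiotic prophase, leptotene/zygotene (L/Z) spermatocytes, which had been sorted by flow cytometry after Hoechst staining of dissociated mouse testes at 12 days postpartum (dpp). Libraries of amplified full-length cDNA came from 3 littermate control and 3 Eef1g-cKO samples on the C57BL/6J background. In Eef1g-cKO males a floxed Eef1g allele, which encodes a subunit of translation elongation factor eEF1, was deleted by Stra8-GFPCre. This Cre acts in germ cells from type A1 spermatogonia, whereas the 10 genes are markers of somatic cells. Which cells gave the reads counted here was not tested. The sources used here do not give the Cre and flox genotype of the controls or the number of males behind a library, and p-values below measure only the spread between these samples.

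The seminiferous tubules are wrapped by peritubular myoid cells, flat smooth-muscle-like cells that carry smooth muscle actin and myosin and move the tubule contents along. Between the tubules lies a loose stroma of fibroblast-like cells that secrete fibrillar collagens and small proteoglycans, and PDGF receptor alpha marks much of this mesenchyme. Insulin-like growth factor 1 is made by somatic cells of the testis and acts on germ and somatic neighbours. Leptotene and zygotene spermatocytes are not known for any of these products.

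The libraries held between 763133 and 2617648 reads assigned to genes, the lowest in Eef1g-cKO replicate 3. A count of 3 reads, taken here as the detection floor, equalled 1.57 to 2.29 CPM (a gene's reads for each 1000000 in its library, scaled by TMM) in control and 1.18 to 4.63 CPM in Eef1g-cKO libraries. Eef1g itself was measured at 222, 226 and 212 CPM in control replicates 1 to 3 and at 139, 151 and 119 CPM in Eef1g-cKO replicates 1 to 3. It fell by 0.68 on the log2 scale (SE 0.20, edgeR quasi-likelihood test, Benjamini-Hochberg adjusted p = 0.02898), and no library overlapped the other genotype. Under the alternatives listed below the log2 fold change lay between −0.86 and −0.48. The edgeR adjusted p was 0.1101, 0.121 and 0.09192 without control replicate 1, 2 or 3, and 0.1611 with all libraries thinned to the shallowest. It was 0.08369 without Eef1g-cKO replicate 1, 0.08366 with no filter and 0.05849 with a replicate block. The paper describes a deletion of part of the exons, and a count per gene also takes reads of the other exons. A list of 12 L/Z germ cell markers summed to between 15674 and 17116 CPM in control and between 33025 and 40670 CPM in Eef1g-cKO libraries, so germ cell transcripts were abundant in all 6 libraries. Dazl and Sycp1 held the largest parts, 5770 and 5101 CPM of a control mean of 16578 CPM. Eef1g-cKO replicate 3 also had the highest share of nuclear rRNA reads, 9.23% against 2.73% to 6.29% elsewhere.

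All 10 genes together were a trace of every library, and a smaller trace in Eef1g-cKO. They held 473, 420 and 484 reads in control replicates 1 to 3 and 70, 206 and 15 reads in Eef1g-cKO replicates 1 to 3. In control libraries these were 0.0374% (exact Clopper-Pearson 95% interval 0.0341 to 0.0409), 0.0229% (0.0208 to 0.0252) and 0.0289% (0.0263 to 0.0315) of all reads. In Eef1g-cKO libraries they were 0.00535% (0.00417 to 0.00676), 0.00787% (0.00683 to 0.00902) and 0.00197% (0.00110 to 0.00324). Every Eef1g-cKO share lay below every control share, and no interval of one genotype reached the other. Without molecular identifiers, PCR copies count as reads, so these intervals cover counting error only. On TMM-scaled CPM the sum was 284 ± 71.2 in control and 53.5 ± 28.9 in Eef1g-cKO (SD, n = 3 each), 5.31-fold apart, and 4.14-fold without Eef1g-cKO replicate 3. In bulk RNA, fewer cells of a type and less RNA per cell cannot be told apart.

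**Figure D1:**
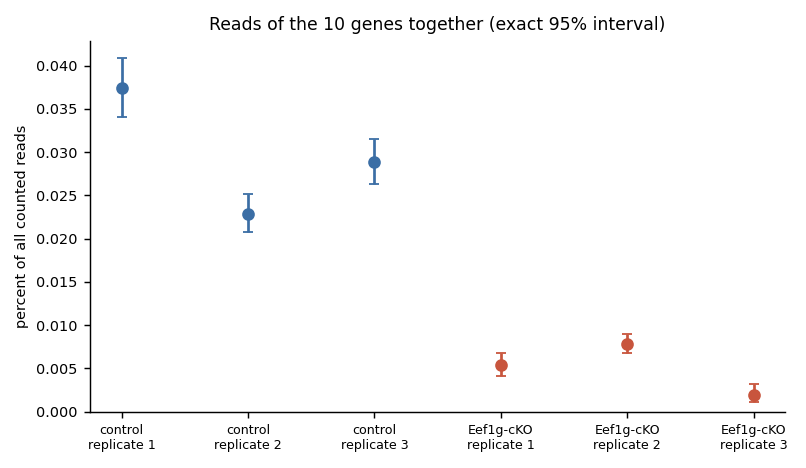
Reads of the 10 peritubular and stromal genes as a percent of all counted reads (linear axis) in each of the 6 libraries, with exact 95% counting intervals as bars. Control libraries sit between 0.0229% and 0.0374%, all above the Eef1g-cKO libraries at 0.00197% to 0.00787%.

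Of the 10 genes, 6 had enough reads to be tested: Dcn, the 3 collagen genes, Pdgfra and Igf1. A call needed a change of more than 1 on the log2 scale in either direction and an adjusted p under 0.05. Lower calls were made for 5 of the 6, beside 4.96% of all 8513 tested genes, and higher calls for 0 of the 6, beside 3.42%. No member was higher at an unadjusted p under 0.05 either, and DESeq2 and limma-voom also called 0 higher. All 6 had every Eef1g-cKO value below every control value, which held for 18.1% of tested genes. Their median log2 fold change was −2.41, against −0.05 over all tested genes. These counts and this median carry no weight of their own, because the filter asked for about 6.70 CPM in 3 libraries. All 6 genes passed it in the 3 control libraries and 0 of them in the 3 Eef1g-cKO libraries, so the tested members entered through the control libraries and the filter favoured members that were lower in Eef1g-cKO.

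**Figure D2:**
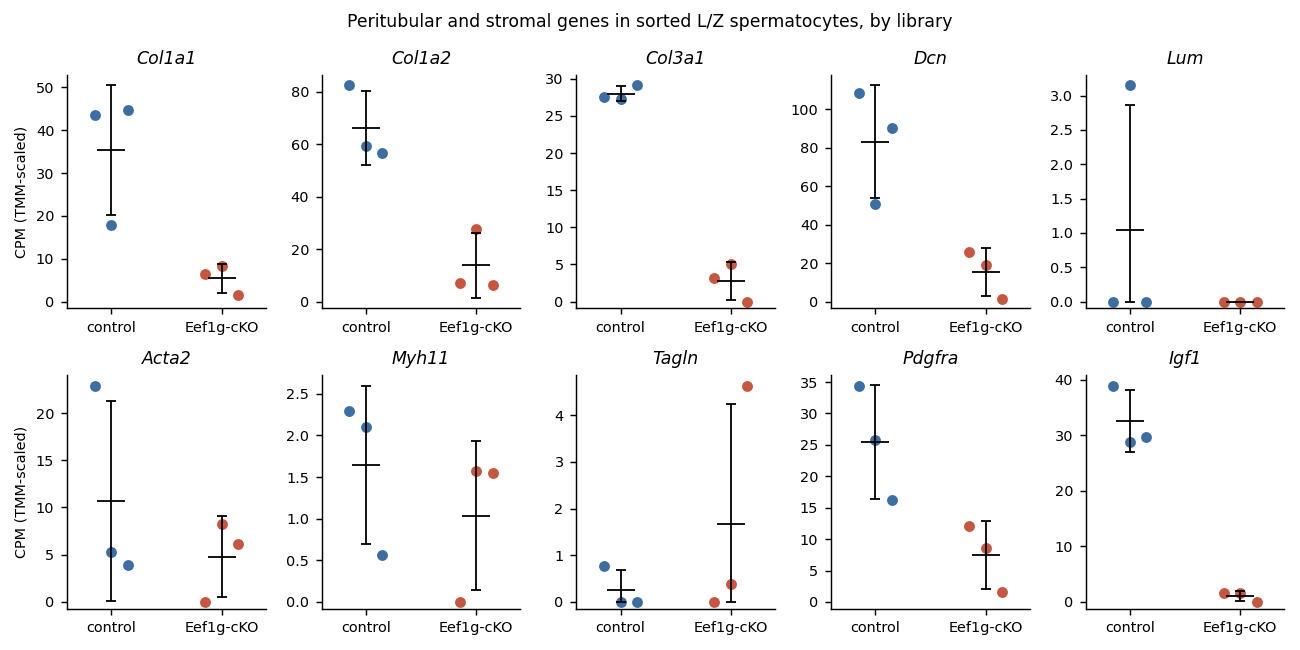
CPM of each of the 10 genes (linear axes with a scale per gene) in the 3 control (blue) and 3 Eef1g-cKO (red) libraries, with the mean as a line and ± SD as a bar that stops at 0. For Dcn, the 3 collagen genes, Pdgfra and Igf1 the genotypes do not overlap, while Acta2 overlaps with a wide spread and Myh11, Tagln and Lum overlap near the detection floor.

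Type I collagen is a triple helix of 2 chains from Col1a1 and 1 from Col1a2, and Col3a1 encodes the single chain of type III collagen, the other main fibrillar collagen of loose connective tissue. The genes are alike in build: 21, 24 and 24 coding exons of Col1a1, Col1a2 and Col3a1 are exactly 54 bases long, and in 21, 23 and 24 of these glycine opens every triplet of codons, the repeat of the collagen helix. One such exon of each gene is shown because the text that follows reads them as separate genes, which needs sequences that differ. They come from GENCODE M21 transcripts (GRCm38), 5′ to 3′ on the + strand, with the glycine codons in capitals. They are Col1a1 exon 8 at chr11:94939904-94939957, Col1a2 exon 8 at chr6:4515481-4515534 and Col3a1 exon 6 at chr1:45325360-45325413.
Col1a1: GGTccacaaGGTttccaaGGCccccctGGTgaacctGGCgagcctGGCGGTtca
Col1a2: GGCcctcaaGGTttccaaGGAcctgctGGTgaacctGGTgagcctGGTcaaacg
Col3a1: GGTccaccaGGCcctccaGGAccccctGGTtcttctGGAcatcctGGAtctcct
The Col1a1 exon holds 7 glycine codons and the others 6 each, and the letters around them differ between the genes. Over whole transcripts, 0 of the stretches of 50 bases in Col1a1 or Col1a2 occurred in another gene, and 1.67% of those in Col3a1 occurred only in Gm47302, a model inside the same locus that had 0 reads.

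The collagen genes fell together in Eef1g-cKO. Col1a1 (chr11:94936224-94953042) was at 43.5, 17.8 and 44.8 CPM in control replicates 1 to 3, and at 6.47, 8.23 and 1.54 CPM in Eef1g-cKO replicates 1 to 3. Its lowest control library was still above its highest Eef1g-cKO library. The means were 35.4 ± 15.2 and 5.42 ± 3.47 CPM (SD, n = 3 each), and the gene fell by 2.53 on the log2 scale (SE 0.60, edgeR adjusted p = 0.008734). This call was lost without control replicate 1 (adjusted p = 0.06029), without control replicate 3 (0.07025) and in limma-voom (0.05479).

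Col1a2 (chr6:4504814-4541544) was at 82.4, 59.3 and 56.5 CPM in control and at 7.28, 27.8 and 6.18 CPM in Eef1g-cKO libraries. Eef1g-cKO replicate 2 stood above the other Eef1g-cKO libraries but below every control. Its log2 fold change was −2.09 (SE 0.48, edgeR adjusted p = 0.006719), −3.23 without Eef1g-cKO replicate 2, and the call was lost without control replicate 1 (adjusted p = 0.05206). Col3a1 (chr1:45311538-45349706) had the tightest control values of the 10 genes relative to its mean, 27.5, 27.3 and 29.1 CPM. In Eef1g-cKO it was at 3.23, 5.10 and 0 CPM, from 4, 13 and 0 reads. The log2 fold change was −3.03 (SE 0.69, edgeR adjusted p = 0.006108), and the gene stayed called under every alternative in which it was tested. It was −3.73 without Eef1g-cKO replicate 2 and −2.64 without replicate 3.

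The paired chains of type I collagen did not keep a fixed ratio. As RPKM, reads per kilobase of the deposited gene length and per 1000000 reads, Col1a1 over Col1a2 was 0.999, 0.570 and 1.50 in control replicates 1 to 3 and 1.68, 0.560 and 0.473 in Eef1g-cKO replicates 1 to 3. The genotypes overlapped, and the last ratio rested on 1 and 4 reads. The deposited length of Col1a2, 12426 bases, is more than its main transcript of 5348 bases, so the ratio is read between libraries and not as the number of chains.

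Decorin, from Dcn, is a small leucine-rich proteoglycan that binds collagen fibrils. Dcn (chr10:97479609-97518143) was at 108, 50.9 and 90.1 CPM in control and at 25.9, 19.2 and 1.54 CPM in Eef1g-cKO libraries. No libraries overlapped, and Eef1g-cKO replicate 3 rested on 1 read. Means were 83.1 ± 29.4 and 15.5 ± 12.6 CPM (SD, n = 3 each) and the log2 fold change was −2.28 (SE 0.50, edgeR adjusted p = 0.005754). It was −1.86 without Eef1g-cKO replicate 3 and remained called under all alternatives in which Dcn was tested. Lumican, from Lum (chr10:97565128-97572703), is a related collagen-binding proteoglycan whose gene lies close to Dcn. It had 6 reads in control replicate 2 and 0 in the other 5 libraries. The counting interval of its pooled ratio, control over Eef1g-cKO, starts at 1.04, and a difference that rests on a single library has no replicate check.

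The contractile genes behaved differently from the collagens: reads were few and the genotypes overlapped. Acta2 (chr19:34241090-34255336, − strand), the smooth muscle alpha actin that defines myoid cells, had 30, 10 and 7 reads in control and 0, 21 and 4 reads in Eef1g-cKO libraries. These were 22.9, 5.25 and 3.92 CPM against 0, 8.23 and 6.18 CPM, so control replicate 1 was high and Eef1g-cKO replicates 2 and 3 stood above the other controls. Acta2 did not pass the filter, and in a fit without one its log2 fold change was −1.03 (SE 0.94, edgeR adjusted p = 0.5123). Smooth muscle myosin heavy chain, from Myh11 (chr16:14194535-14291372, − strand), had 3, 4 and 1 reads in control and 0, 4 and 1 in Eef1g-cKO libraries. Transgelin, an actin-binding protein of smooth muscle from Tagln (chr9:45929619-45936058, − strand), had 1, 0 and 0 reads in control and 0, 1 and 3 in Eef1g-cKO libraries. Neither was measured well enough for a difference to be detectable at this depth. Of the Tagln stretches of 50 bases, 48.3% lie also in Pcsk7 or Gm48529, genes on the opposite strand, and whether counting used strand is not stated.

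Actins are close relatives, and reads of an abundant one could be counted for Acta2. Actb, the cytoplasmic beta actin, had 1124, 1630 and 1727 reads in control and 421, 1241 and 197 in Eef1g-cKO libraries, whereas Actg2, the other smooth muscle actin, had 0 in every library. A matched coding window of 60 bases, the one within an exon where Actg2 is most like Acta2, shows how they are told apart. The lines give GENCODE M21 (GRCm38) sequence 5′ to 3′ on the − strand, with bases that differ from Acta2 in capitals, from Acta2 exon 8 at chr19:34243320-34243379, Actg2 exon 8 at chr6:83516271-83516330 and Actb exon 5 at chr5:142904070-142904129.
Acta2: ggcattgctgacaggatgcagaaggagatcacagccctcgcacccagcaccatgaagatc
Actg2: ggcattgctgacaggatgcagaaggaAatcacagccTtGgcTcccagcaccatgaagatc
Actb: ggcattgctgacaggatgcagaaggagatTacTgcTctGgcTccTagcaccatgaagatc
Over this window Actg2 differs from Acta2 at 4 bases and Actb at 6. Across the coding sequence Actb matched Acta2 at 83.0% of bases, with a longest identical run of 47 bases. Actg1, another abundant actin gene, matched at 81.7% with a longer run of 56 bases. It had 337, 527 and 570 reads in control and 337, 659 and 173 in Eef1g-cKO libraries. Of the Acta2 stretches of 50 bases, 0.352% occurred in other genes, among them Actg1 but not Actb. The part of misplaced actin reads in the Acta2 counts was not tested.

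Pdgfra (chr5:75152292-75198215) encodes the receptor through which PDGF-AA acts on testis mesenchyme. It was at 34.3, 25.7 and 16.2 CPM in control and at 12.1, 8.63 and 1.54 CPM in Eef1g-cKO libraries. The genotypes did not overlap, yet the gap between the lowest control and the highest Eef1g-cKO library was small beside the spread within each. Its log2 fold change was −1.66 (SE 0.63, edgeR adjusted p = 0.0881), which was not called here or under any alternative in which it was tested (adjusted p from 0.0639 to 0.324). Without Eef1g-cKO replicate 3, where it had 1 read, it was −1.27.

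Igf1 (chr10:87858265-87937042), the growth factor of the set, gave the largest difference of the 6 tested genes. It had 51, 55 and 53 reads in control and 2, 4 and 0 reads in Eef1g-cKO libraries, or 38.9, 28.9 and 29.7 CPM against 1.62, 1.57 and 0 CPM. Control libraries were close together and Eef1g-cKO libraries lay at or near the floor. The log2 fold change was −4.57 (SE 0.72, edgeR adjusted p = 0.000369), and 30 of the 8513 tested genes had a value this low or lower. The fitted size depends on few reads: the pooled ratio of read rates, control over Eef1g-cKO, was 23.5 with a counting interval of 10.6 to 65.0. Igf1 stayed called under every alternative in which it was tested (adjusted p at most 0.00663), and was at −4.26 without Eef1g-cKO replicate 3.

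The order of the genes by level was read per length. In control libraries mean RPKM was 14.2 ± 5.03 for Dcn, 6.00 ± 5.95 for Acta2, 5.39 ± 2.32 for Col1a1, 5.32 ± 1.14 for Col1a2, 3.28 ± 0.564 for Igf1, 2.85 ± 0.102 for Col3a1 and 2.54 ± 0.904 for Pdgfra (SD, n = 3). Dcn led in each control library, and the order after it depended on the length used. Per kilobase of the main transcript, control means were 47.3 for Dcn, 14.2 ± 2.44 for Igf1, 12.4 ± 2.66 for Col1a2, 5.97 ± 2.56 for Col1a1, 5.25 ± 5.21 for Acta2, 5.03 ± 0.179 for Col3a1 and 3.72 ± 1.33 for Pdgfra. On that scale Igf1 and Col1a2 did not differ beyond their spread, nor did Col1a1, Acta2, Col3a1 and Pdgfra. Lum (0.429 RPKM), Myh11 (0.217) and Tagln (0.128) came last on both. In Eef1g-cKO libraries the leading means were 2.70 RPKM for Acta2 and 2.66 for Dcn, an order that turned without replicate 3 (2.31 and 3.86), and Acta2 was at 0 in replicate 1. Igf1 averaged 0.107 RPKM in Eef1g-cKO. Among all genes with a read in the same library, Dcn stood at the 70.7th to 82.0th percentile of RPKM in control libraries and at the 52.4th, 52.5th and 2.25th percentile in Eef1g-cKO replicates 1 to 3. Igf1 moved from between 48.6 and 52.6 to at most 6.32 on the same scale.

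In the make-up of these few reads, the Igf1 share separated the libraries by genotype, and the contractile share did not. Igf1 made up 10.8%, 13.1% and 11.0% of the reads of the 10 genes in control replicates 1 to 3 and 2.86%, 1.94% and 0% in Eef1g-cKO replicates 1 to 3. The genotypes did not overlap, and the pooled shares were 11.5% (exact 95% interval 9.91 to 13.4) and 2.06% (0.760 to 4.43). Acta2, Myh11 and Tagln together went the other way in the pooled reads, 4.07% (3.09 to 5.25) in control and 11.7% (8.23 to 15.9) in Eef1g-cKO. By library they were 7.19%, 3.33% and 1.65% in control but 0%, 12.6% and 53.3% in Eef1g-cKO, so the libraries overlapped and the last value was 8 of 15 reads. The 3 collagens held 46.0% (43.3 to 48.6) and 45.0% (39.2 to 50.9) of pooled reads and Dcn 29.0% and 28.2%, with 206 of the 291 pooled Eef1g-cKO reads from replicate 2. By library the collagens were at 42.5%, 47.4% and 48.1% in control and 30.0%, 51.0% and 33.3% in Eef1g-cKO, and Dcn was at 30.0%, 23.1% and 33.3% against 45.7%, 23.8% and 6.67%. The pooled intervals cover counting error only. These shares describe the libraries and were not tested across samples.

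**Figure D3:**
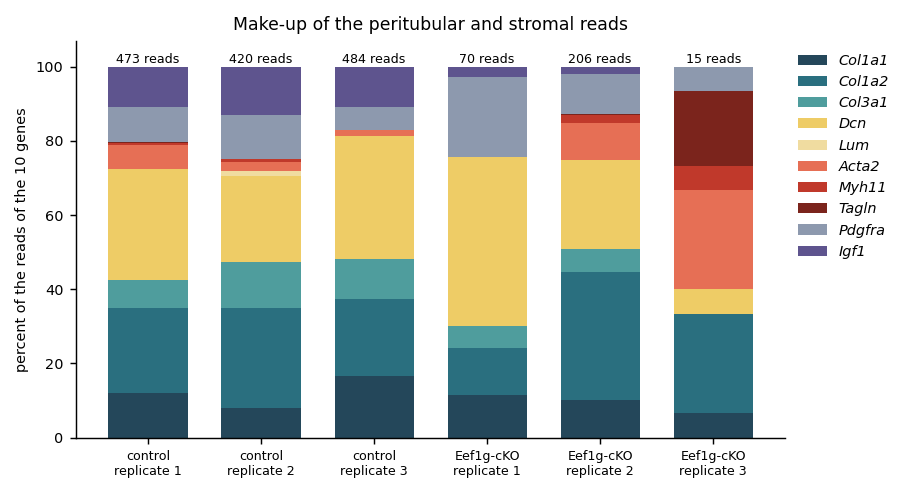
Make-up of the reads of the 10 genes in each library, in percent of those reads (stacked bars from 0 to 100, with the number of reads above each bar). Igf1 takes 10.8% to 13.1% of each control bar and at most 2.86% of an Eef1g-cKO bar, and Eef1g-cKO replicate 3 rests on 15 reads.

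At an equal number of counted reads the genotypes still did not overlap. When each library was thinned to 763133 reads, a step added after the data were seen, the 10 genes kept 281, 162 and 244 reads in control and 32, 71 and 15 reads in Eef1g-cKO libraries. Between 7 and 9 of the genes were detected in thinned control libraries and between 5 and 7 in thinned Eef1g-cKO libraries. The thinned table also gave 5 lower calls among members, a count with the same limit of the filter as in the main fit.

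Genes of related function were then read from lists chosen by role. Of 16 other stromal identity genes, 4 were tested, 2 were called lower and 0 higher, with a median log2 fold change of −2.43. Over all tested genes 4.96% were called lower and 3.42% higher. None of the 4 stromal identity genes tested was over the filter level in all 3 Eef1g-cKO libraries, so their count and median have the same limit as those of the members. Cd34, a surface glycoprotein of stromal and vascular progenitors, was at 29.0, 7.87 and 30.8 CPM in control and 0, 1.57 and 0 CPM in Eef1g-cKO libraries (log2 fold change −4.67, SE 0.96, edgeR adjusted p = 0.003289; −7.95 without Eef1g-cKO replicate 2, which held all its Eef1g-cKO reads). Ptch1, the Hedgehog receptor and a target of that pathway in interstitial cells, was at 34.3, 29.9 and 40.3 CPM against 9.70, 1.96 and 4.63 CPM (−2.74, SE 0.62, adjusted p = 0.005994, and −3.59 without Eef1g-cKO replicate 1). Neither gene overlapped between genotypes. The nuclear receptor gene Nr2f2 (52.5 ± 22.1 and 18.0 ± 14.1 CPM, adjusted p = 0.07259) and the gelsolin gene Gsn (19.2 ± 1.88 and 4.80 ± 4.25 CPM, adjusted p = 0.06695) were not called, though Nr2f2 was under 2 alternatives and Gsn under 4. Ly6a and Thy1 had 0 reads in all 6 libraries, and Pdgfrb had 4 reads in control replicate 3 alone.

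**Figure D4:**
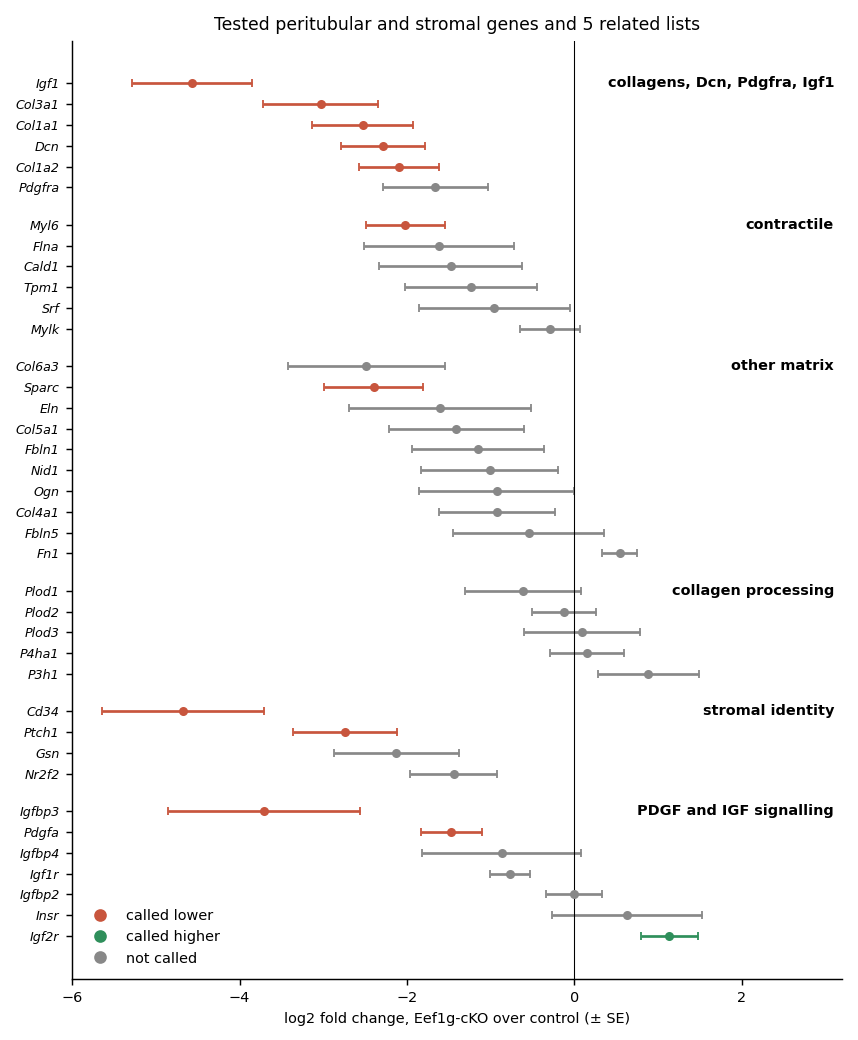
Log2 fold change, Eef1g-cKO over control, with SE as bars, for the tested genes of the set and of 5 related lists, with called genes in colour. Dcn, the collagens and Igf1 lie between −4.57 and −2.09, whereas the tested collagen processing genes lie on both sides of 0.

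Smooth muscle contractile genes other than the members gave 1 lower and 0 higher calls among 6 tested of 15, with a median of −1.36. Over all tested genes 4.96% were called lower and 3.42% higher. Cald1, Tpm1 and Flna were not over the filter level in all 3 Eef1g-cKO libraries, so this count and median have the limit given for the members. With no filter the median was −0.78 over the 14 genes with reads. The call was Myl6, a myosin light chain found in muscle and non-muscle cells alike, at 65.2 ± 18.8 and 16.3 ± 11.4 CPM (SD, n = 3 each; log2 fold change −2.02, SE 0.47, edgeR adjusted p = 0.007748). Its adjusted p was 0.06029 without control replicate 1. Without Eef1g-cKO replicate 1 the value was −2.79. Mylk, the myosin light chain kinase, was at 46.0 ± 7.08 and 36.9 ± 9.83 CPM (adjusted p = 0.6531), and Cald1, caldesmon, at 24.2 ± 28.5 and 7.97 ± 6.13 CPM (0.2823). Among markers of smooth muscle identity, Actg2 had 0 reads, Cnn1 2 reads in 1 library, and Myocd 2 reads in each of 2 libraries. Of untested genes with more reads, Synpo2 had 4, 14 and 8 in control and 0 in each Eef1g-cKO library. Tpm2 had 24, 2 and 7 against 2, 17 and 0 reads, and Des 1, 3 and 0 against 0, 18 and 0. Tpm1 (17.6, 11.0 and 8.96 against 1.62, 6.67 and 7.72 CPM) and Flna (9.92, 13.6 and 7.28 against 2.43, 5.88 and 0 CPM) were tested. Neither overlapped between genotypes or was called (edgeR adjusted p = 0.331 and 0.2545). Of the 15 genes, 4 lay below every control in every Eef1g-cKO library and 0 above. Among all tested genes 18.1% lay below, but the 4 include the untested Synpo2, so that share is no baseline for this count. Acta2 exceeded the detection floor in 5 of the 6 libraries, whereas Myh11 and Tagln had at most 4 reads in any library.

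Other matrix genes gave 1 lower and 0 higher calls among 10 tested of 26, with a median of −1.08. Over all tested genes 4.96% were called lower and 3.42% higher. The gene called, Sparc, was not over the filter level in every Eef1g-cKO library, so the count has the limit given for the members. With no filter the median was −2.13 over all 26. Of these, 11 never exceeded the detection floor in Eef1g-cKO, so that median rests in part on genes near 0 reads. All Eef1g-cKO values lay below all control values for 9 of the 26, and above them for 1. Among the 9, Col4a2, Col6a1, Col15a1, Bgn, Fbln2 and Fbn1 did not pass the filter. The share of 18.1% covers tested genes only and is no baseline for this count. Sparc, a collagen-binding matricellular protein, was at 44.3, 79.8 and 78.9 CPM in control and at 29.9, 3.92 and 4.63 CPM in Eef1g-cKO libraries (log2 fold change −2.40, SE 0.59, edgeR adjusted p = 0.01186). That call was lost without control replicate 2 (0.05219) or 3 (0.06241), and the value was −3.99 without Eef1g-cKO replicate 1. Col4a1, a basement membrane collagen chain, was at 21.9 ± 14.0 and 11.1 ± 10.3 CPM (adjusted p = 0.4192). Fibronectin, from Fn1, stood apart from the fibrillar collagens: control libraries averaged 131 ± 12.1 CPM and Eef1g-cKO libraries 189.6 ± 13.3 CPM, and its libraries did not overlap (log2 fold change 0.54, SE 0.21, adjusted p = 0.09275, not called).

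Collagen processing genes, the enzymes and chaperones that hydroxylate and fold procollagen, gave 0 calls in either direction among 5 tested of 12. At an unadjusted p under 0.05, edgeR, DESeq2 and limma-voom also found 0. The median was 0.09, and it turned to −0.03 under upper-quartile scaling, −0.10 with library totals, and −0.33 without Eef1g-cKO replicate 2. With no filter it was −0.90 over all 12 genes, 2 of them lower at an unadjusted p under 0.05. Of the 12, 4 never exceeded the detection floor in Eef1g-cKO. Serpinh1, the collagen chaperone, did not pass the filter and was at 9.92, 11.0 and 6.16 CPM in control and 0.81, 1.57 and 0 CPM in Eef1g-cKO libraries, without overlap, as was true of Adamts2 with 2, 7 and 10 against 0, 2 and 0 reads. Plod2, a lysyl hydroxylase, was at 69.8 ± 10.6 and 61.5 ± 39.0 CPM, P4ha1, a prolyl hydroxylase subunit, at 25.6 ± 6.68 and 28.8 ± 5.70 CPM, and P3h1, a prolyl 3-hydroxylase, at 11.0 ± 4.52 and 20.7 ± 8.97 CPM (SD, n = 3 each). These 3 had overlapping libraries, and such enzymes are also made by cells that secrete no fibrillar collagen.

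Around Pdgfra and Igf1, 18 ligands, receptors, adaptors and binding proteins of the PDGF and IGF pathways gave 2 lower calls and 1 higher call among 7 tested. Over all tested genes 4.96% were called lower and 3.42% higher. Igfbp3, 1 of the 2 called lower, was over the filter level in no Eef1g-cKO library, so its call has the limit given for the members. Pdgfa, the ligand that signals to Pdgfra, was at 76.3, 55.1 and 70.0 CPM in control and 18.6, 23.1 and 32.4 CPM in Eef1g-cKO libraries (log2 fold change −1.47, SE 0.36, edgeR adjusted p = 0.01084; lost without control replicate 1, 0.06622, or 3, 0.05716). Igfbp3, an IGF-binding protein, fell from 16.7 ± 5.32 to 2.06 ± 3.57 CPM (−3.70, SE 1.15, adjusted p = 0.03769). Leaving out any one library but Eef1g-cKO replicate 3 ended this call (adjusted p from 0.08968 to 0.1781), and without replicate 3, which held all its Eef1g-cKO reads, the value was −7.87. The IGF type 1 receptor gene Igf1r was at 145 ± 15.8 and 85.3 ± 5.61 CPM, with no overlap but a change under the fold limit (−0.77, SE 0.24, adjusted p = 0.03498). Igf2r, which clears IGF2 and carries lysosomal enzymes, was higher, 37.9 ± 16.3 and 83.3 ± 10.5 CPM (1.13, SE 0.34, adjusted p = 0.03215), a call that ended under 7 of 17 alternatives. Among them were upper-quartile scaling, library totals, and leaving out control replicate 1 (adjusted p = 0.1386), control replicate 3 (0.1624) or Eef1g-cKO replicate 2 (0.08667). Igfbp2 was at 54.3 CPM in both genotypes. Across the 5 lists, Fn1 and Igf2r were the genes higher at an unadjusted p under 0.05, and DESeq2 and limma-voom called no gene higher but Igf2r.

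Markers of other testis cells are given because some moved with the stromal genes. Sertoli cell markers, 16 genes, summed to between 581 and 1154 CPM in control and between 419 and 500.4 CPM in Eef1g-cKO libraries, without overlap. Lower calls were made for 3 of 8 tested, beside 4.96% of all tested genes: Clu, Cst12 and Cldn11 (log2 fold changes −2.58, −2.18 and −3.84, edgeR adjusted p = 0.02245, 0.001053 and 0.00714). Clu and Cldn11 were not over the filter level in all 3 Eef1g-cKO libraries, so this count has the limit given for the members. The Clu call was lost in limma-voom (0.05204), after thinning (0.05389) and without Eef1g-cKO replicate 2 (0.08166), and both the Clu and Cldn11 calls without control replicate 2 (0.2125 and 0.0761), the library with the highest Sertoli sum and the lowest stromal sum of the controls. Cldn11 was at −5.84 without Eef1g-cKO replicate 1. Ctsl, a lysosomal protease, was the largest part of the sum. It was at 318 ± 42.7 CPM of a mean sum of 814 CPM in control and at 355 ± 43.7 CPM of 456 CPM in Eef1g-cKO. Ctsl was not lower in Eef1g-cKO (log2 fold change 0.15), and the sum with it was 1.79-fold apart, less than Clu, Cst12 or Cldn11. Cst9 was at 131 ± 88.4 and 22.1 ± 18.1 CPM (edgeR adjusted p = 0.09356, called under 6 of 17 alternatives). Amh and Gata4 had at most 2 reads in a library. Part of the L/Z germ cell markers moved the opposite way, with 6 of 12 called higher and 0 lower by edgeR (also 0 lower by DESeq2 and limma-voom). Over all tested genes 3.42% were called higher. Stra8 was lower within the fold limit (−0.69, SE 0.20, edgeR adjusted p = 0.02654). Syce2 and Ddx4 were higher without overlap but within the fold limit (0.85 and 0.55, edgeR adjusted p = 0.003675 and 0.01804). Meiob, Spo11 and Syce1 overlapped between the genotypes and were not called (log2 fold changes 0.06, 0.07 and 0.20). The germ cell markers called higher were Dazl, Sycp1, Sycp2, Sycp3, Hormad1 and Dmc1, with log2 fold changes of 1.04 to 1.87. With upper-quartile scaling or library totals 3 of them, Dazl, Hormad1 and Dmc1, stayed above the fold limit. The part of the mixture of cells in the stromal differences was not tested.

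The sums of the remaining somatic lists overlapped between the genotypes. Leydig cell markers summed to 80.9, 87.7 and 78.4 CPM in control and 167, 116 and 86.5 CPM in Eef1g-cKO libraries, of which Fdx1, a ferredoxin of many cell types, made up nearly all (72.2 ± 4.31 and 118 ± 39.6 CPM, adjusted p = 0.0974). The Leydig enzymes Cyp17a1, Hsd3b1, Hsd3b6 and Hsd17b3 had 0 reads in all 6 libraries, and Star had at most 18. Endothelial markers summed to 17.8 to 23.7 CPM in control and 10.2 to 38.8 CPM in Eef1g-cKO libraries, with Cdh5, Egfl7 and Kdr ahead and Pecam1 at no more than 2 reads. Blood and macrophage markers were at 105, 17.8 and 10.6 CPM against 5.66, 5.49 and 100.4 CPM, mostly the globin genes Hbb-bs, Hba-a1 and Hba-a2. Each of these 3 lists had 1 tested gene, and edgeR, DESeq2 and limma-voom called 0 lower and 0 higher, with Fdx1 higher at an unadjusted p under 0.05. Eef1g-cKO replicate 3, lowest for the 10 peritubular and stromal genes but not for the stromal identity list, was thus the second highest of the 6 libraries for blood markers.

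**Figure D5:**
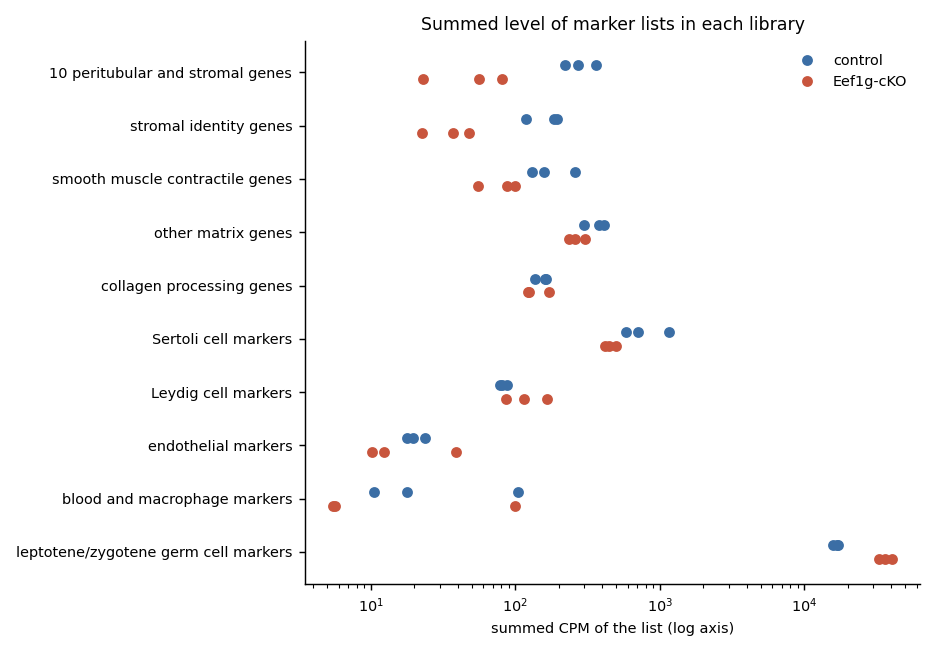
Summed CPM of each marker list (log axis) in the 3 control (blue) and 3 Eef1g-cKO (red) libraries, 1 point per library. The 10 peritubular and stromal genes separate by genotype, 220.5 to 361 against 23.2 to 80.8 CPM, as do the stromal identity, contractile and Sertoli lists, whereas collagen processing, endothelial and blood lists overlap.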

How the data were processed

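Per the study's methods, the authors trimmed reads with fastp, aligned them to GRCm38 with HISAT2 and counted them per gene with featureCounts. The deposited values are raw read counts for each Ensembl gene in each library, with no scaling. Strand and multi-mapping settings are not given in the sources used here. The 6 count columns were matched to samples by name, and groups came from sample titles. Every pair of libraries differed by more than sampling noise (chi-square per degree of freedom at least 6.37 over 15 pairs).

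All genes were fitted with edgeR 4.0.16 in R 4.3.3 (robust quasi-likelihood F test, TMM scaling, genotype as the only term), after filterByExpr with a minimum count of 10 and a minimum total of 15. This left 8513 of 22130 genes with reads. The Benjamini-Hochberg adjustment ran over all tested genes, and the SE of a log2 fold change was its size over the root of F. CPM used TMM-scaled library sizes, and RPKM the deposited gene lengths. Exact intervals came from scipy 1.17.1. In simulated data the fit was checked for recovery of known changes.

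The 10 genes and all lists were chosen with earlier results of these data known. Besides the 10 genes, the text names the 3 genes of highest mean CPM and the called genes of each list. Other named genes apart from Eef1g, among them those with reads at or near 0 and the actins compared with Acta2, were named after their values were seen. Sequences and exons are from GENCODE M21, where 9 of the 10 genes have the deposited position. Alternatives were other scalings (RLE, upper quartile, library totals), other filters (none, or 10 reads in each library), other tools (DESeq2 1.42.0, and limma 3.58.1 voom with quality weights), non-robust estimation, a replicate block and leaving out each library. Thinning and removal of mitochondrial and rRNA genes were added after the data were seen.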

Additional observations from a re-analysis of the deposited data

How the results depend on the processing

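Under the alternatives that tested any of the 10 genes, no member reversed, and Dcn, Col3a1 and Igf1 stayed called. Lower calls among members numbered 5, except 4 with limma-voom, and 3 to 5 when 1 library was left out (3 without control replicate 1, 4 without control replicate 3). The filter of at least 10 reads in every library tested none of them. The log2 ratio of the summed reads, −2.41, ranged from −2.57 to −2.42 over scalings and from −2.83 to −2.05 with 1 library left out. Over all genes there were 291 higher calls, but 181 with upper-quartile scaling, 141 with scaling by library totals and 177 under that 10-read filter, which gave 250 lower calls in place of 422. Leaving out 1 library gave 207 to 548 lower calls (209, 207 and 210 without control replicate 1, 2 or 3). Upper-quartile scaling and library totals moved the median of all genes by −0.12 and −0.19 and the lower share of calls from 59.2% to 74.0% and 79.0%. No low-count filter moved that median by −0.25. With no filter the list medians were −0.78 for contractile and −3.04 for stromal identity genes, from fits that hold genes at 0 in a genotype. Samples with the same replicate number shared no deviation (correlations −0.03, 0.01 and −0.04), which does not settle whether they were collected as pairs. With a replicate block there were 249 higher, 328 lower and 5 member calls, and Igfbp3 was no longer called (adjusted p = 0.06672).

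Signs changed in genes that were not called. Cald1 was at 0.064 with limma-voom and between −2.01 and 0.066 with 1 library left out. Plod2 ranged from −0.70 to 0.25 and Cdh5 from −6.48 to 0.45 with 1 library left out. P4ha1 was at −0.043 with library totals and −0.14 after thinning, and Ctsl at −0.045 with library totals. Igfbp2 was at 0.038 without a filter, 0.0045 with limma-voom, 0.017 with the replicate block, and between −0.17 and 0.24 with 1 library left out. Hba-a1 was at −1.31 with limma-voom, −0.48 with the replicate block and between −2.27 and 2.18 with 1 library left out. The cause was not tested. In Eef1g-cKO replicate 3, the shallowest library, a single read was 1.54 CPM.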
